A study of Homo sapiens with 18 samples.

Results

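The cyclin-dependent kinase (CDK) inhibitor genes are CDKN1A, CDKN1B, CDKN1C, CDKN2A, CDKN2B, CDKN2C and CDKN2D, together with CDKN3, a phosphatase that acts on CDKs. Their members were taken as every probe set (a group of probes summarised to 1 value) that the platform annotation assigns to exactly 1 of these 8 genes. This gave 16 of the 54675 probe sets and covered 7 of the 8 genes. CDKN1C had 5 probe sets, CDKN2A had 3, CDKN2B, CDKN2D and CDKN3 had 2 each, and CDKN1A and CDKN1B had 1 each. CDKN2C had no probe set under this rule and is not analysed here.

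RNA was measured on 18 arrays of 3 established human hepatocellular carcinoma lines, Hep3B, SNU449 and PLC (PLC/PRF/5 in the series design), grown in RPMI. In each line 3 arrays came from cells transfected with siRNA against ATAD2, a bromodomain protein of the AAA ATPase class that sits on chromatin, and 3 from cells transfected with a control siRNA that targets no gene. All cells, controls included, received siRNA with the same lipid reagent. The labels call the arrays of a group biological replicates, and one label field calls the treated samples knockouts where the series design names siRNA. The time between transfection and harvest is not given in the sources used here. The series evaluates ATAD2 as a target in this cancer, and for the CDK inhibitors the design asks whether their RNA differs between ATAD2 siRNA and control cells and between the lines.

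CDK inhibitors hold back the kinases that drive a cell from G1 into DNA synthesis. The CIP/KIP proteins p21 (CDKN1A), p27 (CDKN1B) and p57 (CDKN1C) bind cyclin-CDK complexes, chiefly those of cyclin E and cyclin A with CDK2. The INK4 proteins p16 (CDKN2A), p15 (CDKN2B), p18 (CDKN2C) and p19 (CDKN2D) bind CDK4 and CDK6 and keep the retinoblastoma protein RB1 active. CDKN2A also encodes ARF, which restrains MDM2 and thereby stabilises p53, and CDKN1A is a textbook p53 target. In liver cancer the INK4 genes are known to be lost or silenced in many tumours, and p27 is regulated mostly through its destruction by the ubiquitin ligase receptor SKP2.

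Promoter sequence is shown for the genes on which the results below turn, CDKN1A and CDKN1B for the knockdown and CDKN2A and CDKN2B for the difference between lines. Each is the run of 250 bases that ends just before an annotated transcript start, 5′ to 3′ on the gene's strand, from RefSeq on GRCh38.p14. CDKN1A covers chr6:36678464-36678713 on the plus strand and CDKN1B chr12:12717118-12717367 on the plus strand. CDKN2A is given before its second listed start, on the p16 side of the gene, at chr9:21974858-21975107 on the minus strand, and CDKN2B at chr9:22009306-22009555 on the minus strand. Capitals mark the GC box GGGCGG and the CCAAT box on either strand.
CDKN1A: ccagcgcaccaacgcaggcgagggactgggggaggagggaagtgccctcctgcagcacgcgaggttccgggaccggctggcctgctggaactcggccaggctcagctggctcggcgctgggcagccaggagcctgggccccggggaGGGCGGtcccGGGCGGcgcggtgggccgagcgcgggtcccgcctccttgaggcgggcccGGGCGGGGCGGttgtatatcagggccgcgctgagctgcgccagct
CDKN1B: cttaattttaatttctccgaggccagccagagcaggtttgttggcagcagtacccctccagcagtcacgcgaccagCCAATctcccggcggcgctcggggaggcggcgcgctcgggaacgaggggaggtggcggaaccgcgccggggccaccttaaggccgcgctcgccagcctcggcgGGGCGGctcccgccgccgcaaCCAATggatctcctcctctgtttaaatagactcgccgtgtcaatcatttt
CDKN2A: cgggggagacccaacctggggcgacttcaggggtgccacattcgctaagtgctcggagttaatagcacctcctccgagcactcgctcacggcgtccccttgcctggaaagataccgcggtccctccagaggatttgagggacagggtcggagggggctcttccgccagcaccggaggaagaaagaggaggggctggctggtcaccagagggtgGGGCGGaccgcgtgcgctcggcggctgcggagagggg
CDKN2B: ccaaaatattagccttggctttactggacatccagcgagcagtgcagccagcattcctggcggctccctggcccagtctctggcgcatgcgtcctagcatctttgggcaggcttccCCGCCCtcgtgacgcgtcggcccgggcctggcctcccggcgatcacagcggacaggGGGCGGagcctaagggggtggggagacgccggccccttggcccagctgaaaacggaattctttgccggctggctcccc

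The CDKN1A promoter held 4 GC boxes, of which the last pair overlaps, CDKN2B held 2, and CDKN1B and the p16 side of CDKN2A held 1 each. CDKN1B was the only one of these with CCAAT boxes, of which it held 2. GGGCGG occurred in 42.6% and CCAAT in 32% of the 35116 promoters of this length in the RefSeq table. The 4 windows were rich in G and C, at 76.4% for CDKN1A, 64.4% for CDKN1B, 66.8% for CDKN2A and 66.4% for CDKN2B. The window before the ARF-side start of CDKN2A held neither box. The letters TATAAA, TTTGGCGC, TTTCCCGC and CACGTG were searched on both strands and found in none of these windows, against shares of 10.7%, 0.55%, 1.39% and 6.34% of all promoters. These matches describe letters only. The arrays measure RNA and carry no reading of binding at these sites.

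ATAD2 itself, measured by its brightest probe set 222740_at, was lower after its siRNA under every label. Levels here are log2 signals after quantile normalization over all 18 arrays. ATAD2 read 5.15, 4.70 and 5.65 after ATAD2 siRNA against 8.94, 8.93 and 9.02 after control siRNA on the Hep3B arrays. It read 6.62, 6.90 and 6.96 against 9.32, 9.18 and 9.14 on the SNU449 arrays, and 7.05, 7.17 and 7.06 against 9.78, 9.67 and 9.69 on the PLC arrays. Knockdown and control values did not overlap in any line. The arrays of a group correlated at 0.9866 to 0.9982 across probe sets, no 2 arrays held the same values, and the medians of the deposited values ran from 4.14 to 5.62.

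The line names need care before any level is compared between them. Hep3B is generally described as a hepatocyte-like line without functional RB1, and SNU449 as a mesenchymal-like one. The mean of 13 hepatocyte markers was 10.99 to 11.01 on SNU449-labelled, 9.84 to 9.89 on PLC-labelled and 6.06 to 6.18 on Hep3B-labelled control arrays. The mean of 9 mesenchymal markers ran the other way, at 6.44 to 6.48, 7.37 to 7.39 and 9.66 to 9.68 on the same arrays. RB1, probe set 203132_at, averaged 4.44 on SNU449-labelled, 8.57 on PLC-labelled and 9.47 on Hep3B-labelled controls. These values go against the usual descriptions of Hep3B and SNU449, and the names used throughout are those of the labels. Every knockdown difference is taken within 1 label and has the same value whichever name it carries.

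Some arrays also stand apart in RNA quality. The log2 gap between 5′ and 3′ control probe sets of actin and GAPDH, averaged, was -1.16 and -1.08 on PLC ATAD2 siRNA replicates 1 and 3 and -0.47 on replicate 2, against -0.44 to -0.57 on the PLC controls. On Hep3B ATAD2 siRNA replicate 2 it was -0.39, with -0.69 and -0.65 on the other two and -0.58 to -0.71 on the Hep3B controls. The median SD of a probe set was 0.118 among the PLC ATAD2 siRNA arrays, the widest of the 6 groups, against 0.0718 among the PLC controls. The part of these differences in the results was not tested beyond leaving the arrays out. In bulk RNA, fewer cells that express a gene and less RNA per cell cannot be told apart.

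On the Hep3B-labelled arrays ATAD2 siRNA lowered CDKN1A and 2 probe sets of CDKN1C and raised CDKN1B. With limma (a linear model over all 54613 probe sets, Benjamini-Hochberg adjusted p under 0.05), 4 of the 16 CDK inhibitor probe sets passed, 1 higher and 3 lower. In the same comparison 8.87% of all probe sets passed, 5.08% higher and 3.79% lower. By the brightest probe set of each of the 7 genes, 1 was higher and 1 lower, beside 6.91% and 5.6% of all genes. The median log2 change of the 16 was -0.089, beside -0.008 over all probe sets. Knockdown and control values did not overlap for 5 of the 16, beside 26.7% of all probe sets.

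On the SNU449-labelled arrays none of the 16 passed in the limma test, where 0.0439% of all probe sets, 24 in number, did so. Of the 16, 2 had an unadjusted p under 0.05, as did 4092 of all probe sets. The groups did not overlap for 3 of the 16, beside 19.6% of all probe sets. On the PLC-labelled arrays none of the 16 passed either, beside 3.33% of all probe sets, and 2 had an unadjusted p under 0.05, as did 10674 of all probe sets. The groups did not overlap for 4 of the 16, beside 16.7%. Averaged over the 3 lines, CDKN1B was higher and CDKN1A lower, 2 of 16 beside 6.61% of all probe sets. These comparisons have 3 arrays a group, for which an exact two-sided permutation test of 1 gene cannot give a p under 0.1. All p-values therefore come from the model, which pools the spread of a probe set over the 6 groups.

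**Figure D1:**
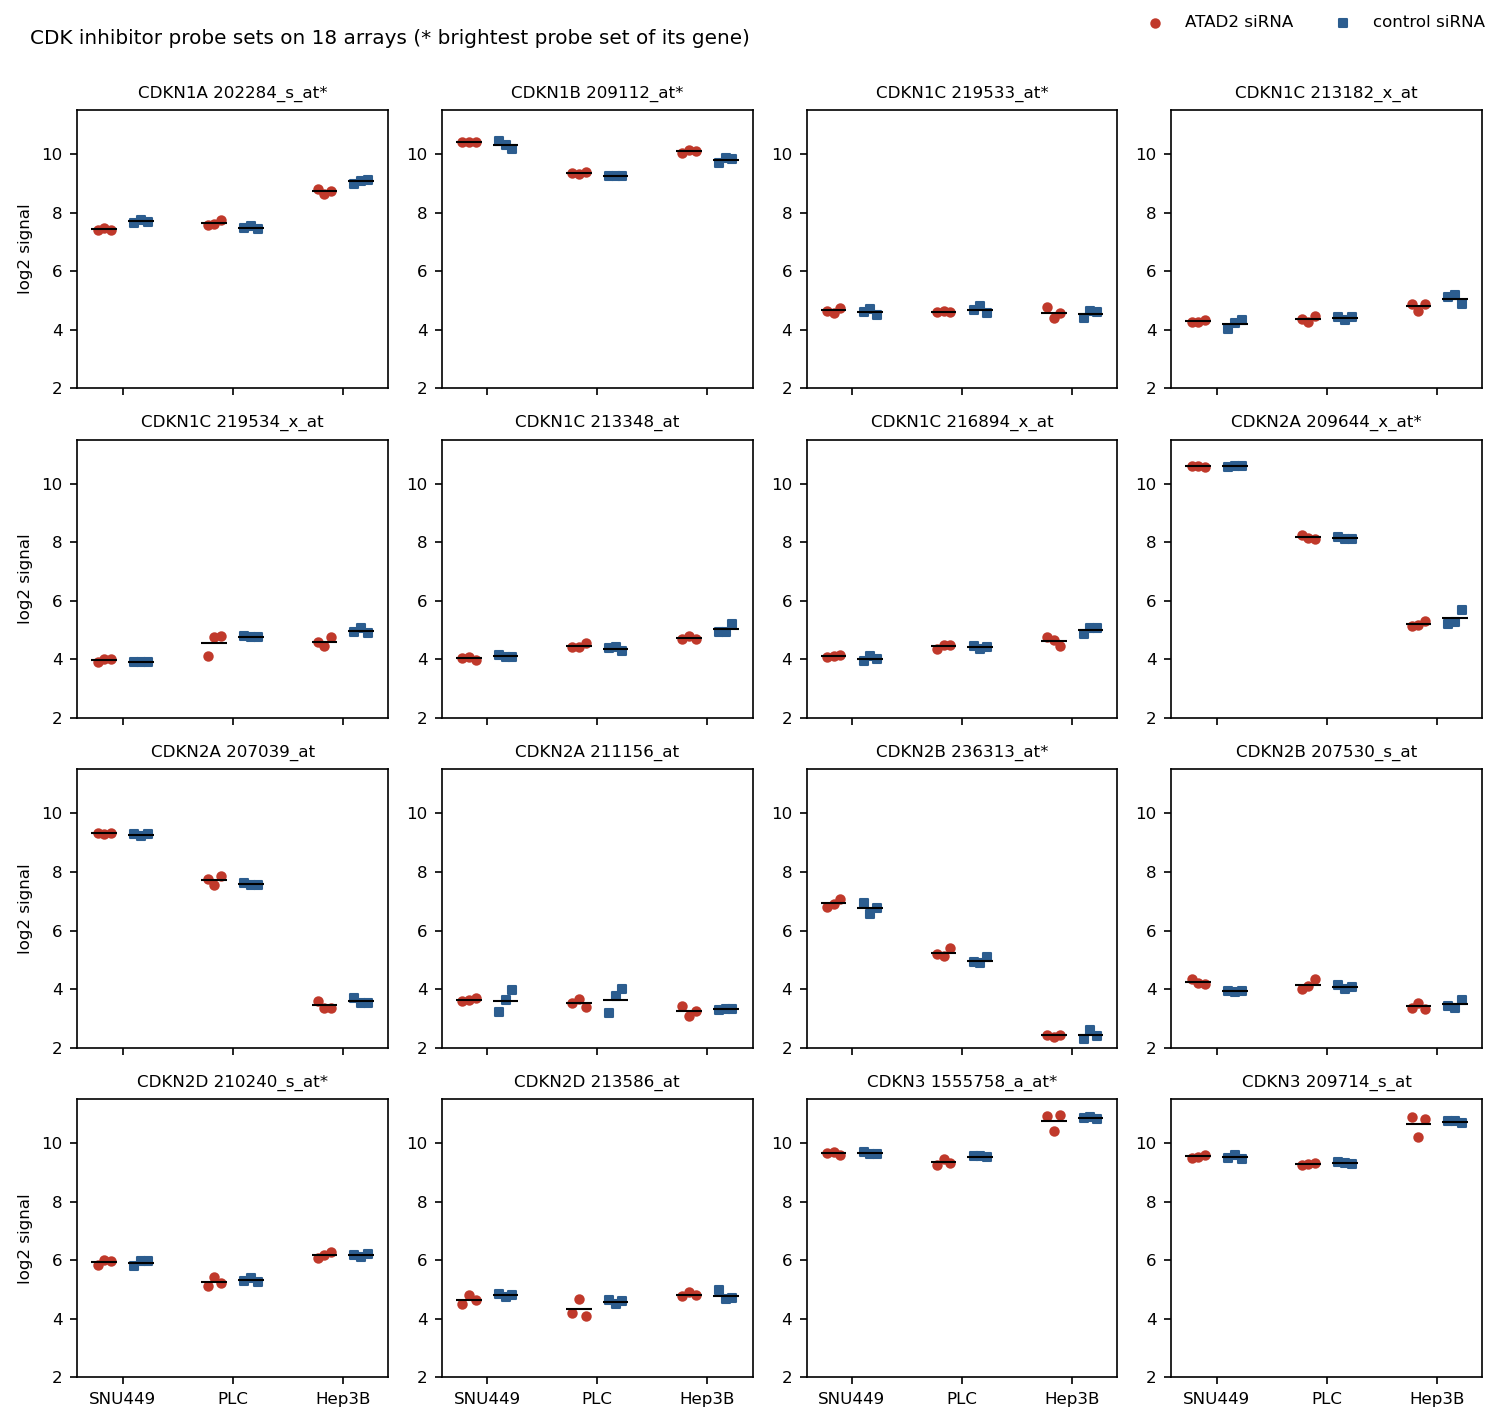
Log2 signal of each of the 16 CDK inhibitor probe sets on 18 arrays, by line label (x axis) and siRNA, with a bar at each group mean. The large steps are between lines for CDKN2A (209644_x_at, 207039_at) and CDKN2B (236313_at), while ATAD2 siRNA and control arrays of a line differ in their means by at most 0.39 log2 units, for CDKN1C 216894_x_at in Hep3B.

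CDKN1A encodes p21, the inhibitor that stops CDK2 in cells with active p53. Probe set 202284_s_at read 8.81, 8.62 and 8.75 on the Hep3B ATAD2 siRNA arrays and 8.99, 9.08 and 9.10 on the Hep3B controls. All 3 knockdown arrays lay below all 3 controls, a log2 change of -0.33 ± 0.0654 (SE), or 1.26-fold lower, with a limma adjusted p of 0.00322. The SNU449 ATAD2 siRNA arrays read 7.39, 7.47 and 7.41 and the SNU449 controls 7.65, 7.75 and 7.69. These groups did not overlap either, and the change of -0.28 ± 0.0654 had an adjusted p of 0.191, so that it did not pass. With the dimmest 50% of probe sets left out of the adjustment, the SNU449 change reached an adjusted p of 0.0497.

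In PLC the CDKN1A values lay on the other side. The PLC ATAD2 siRNA arrays read 7.58, 7.61 and 7.73, all above the controls at 7.48, 7.53 and 7.44, a log2 change of 0.16 with a 95% interval of 0.018 to 0.295 and an adjusted p of 0.195. With PLC ATAD2 siRNA replicate 2 alone, the array without the wide 5′ to 3′ gap, an alternative added after the data were seen, the change was 0.125. The response of CDKN1A differed between lines in the F test over the interaction contrasts, with an adjusted p of 0.0084. In the same test 2 of the 16 CDK inhibitor probe sets passed, beside 4.67% of all probe sets. The change in PLC exceeded that in Hep3B by 0.49 ± 0.0925 (adjusted p of 0.00646). The change in SNU449 was 0.43 below that in PLC with an adjusted p of 0.0789, and it differed from that in Hep3B by 0.06 with a 95% interval of -0.141 to 0.251. Centring the arrays on their medians took the Hep3B change of CDKN1A to -0.223 (adjusted p of 0.0806) and its F test to an adjusted p of 0.112.

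CDKN1B encodes p27, which restrains CDK2 in resting cells. Probe set 209112_at read 10.02, 10.14 and 10.11 on the Hep3B ATAD2 siRNA arrays, each above the Hep3B controls at 9.68, 9.86 and 9.82. The log2 change was 0.30 ± 0.0692, or 1.24-fold higher, with a limma adjusted p of 0.00909. Without Hep3B control replicate 1, the lowest of the controls, it was 0.25 with an adjusted p of 0.0549. The SNU449 ATAD2 siRNA arrays each read 10.42, inside the spread of the SNU449 controls at 10.44, 10.31 and 10.17. The PLC ATAD2 siRNA arrays read 9.35, 9.33 and 9.38, above the PLC controls, which each read 9.25. Neither change passed, with 0.11 (adjusted p of 0.839) in SNU449 and 0.10 (adjusted p of 0.476) in PLC. The F test of a difference between lines gave an adjusted p of 0.347, and the mean over lines was 0.17 ± 0.04 with an adjusted p of 0.0159. The mean of CDKN1A over lines was -0.15 (adjusted p of 0.0249), but its lines do not share a direction, and it lost its call under 11 of 29 alternatives, 6 of which leave out 1 array (Hep3B control replicates 2 and 3, SNU449 control replicate 2, SNU449 ATAD2 siRNA replicates 1 and 3 and PLC control replicate 2), with adjusted p of 0.0512 to 0.0565.

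**Figure D2:**
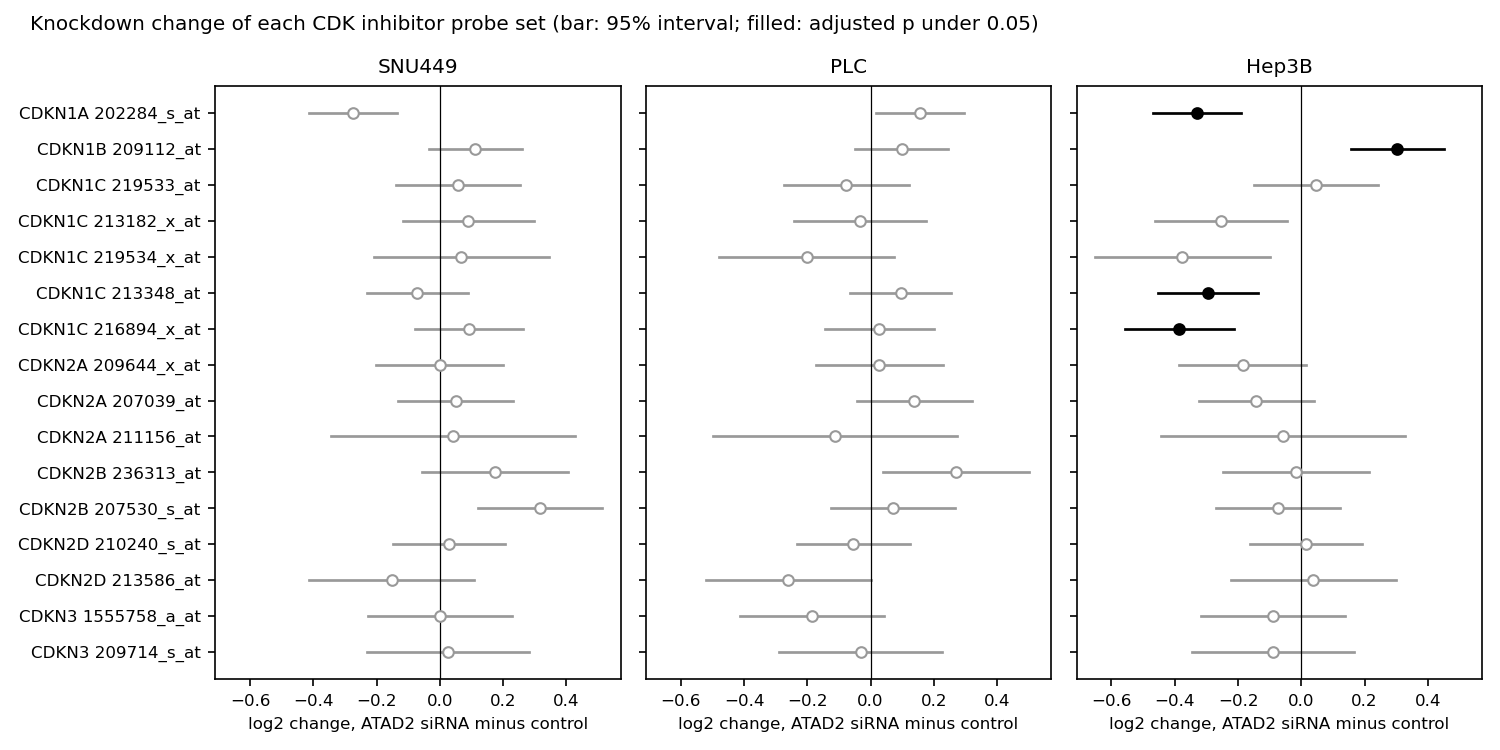
Log2 change (ATAD2 siRNA minus control, x axis) of the 16 probe sets in each line label, with 95% intervals of the limma fit. Filled points passed an adjusted p of 0.05. These are CDKN1A 202284_s_at, CDKN1B 209112_at and the CDKN1C probe sets 213348_at and 216894_x_at, all in Hep3B.

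CDKN1C encodes p57, an imprinted CIP/KIP inhibitor of fetal growth. All 5 of its probe sets were dim, at the 35.4 to 39.3 percentile of all probe set means. Probe set 216894_x_at read 4.76, 4.67 and 4.44 on the Hep3B ATAD2 siRNA arrays and 4.88, 5.08 and 5.07 on the Hep3B controls, a change of -0.39 ± 0.081 with an adjusted p of 0.00513. Probe set 213348_at read 4.69, 4.81 and 4.71 against 4.94, 4.95 and 5.20, a change of -0.30 ± 0.0749 with an adjusted p of 0.0183. Both groups lay apart for each of these probe sets.

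The other CDKN1C probe sets did not pass in Hep3B. Probe set 219534_x_at read 4.60, 4.46 and 4.75 after ATAD2 siRNA against 4.95, 5.08 and 4.91 after control siRNA, with a change of -0.38 and an adjusted p of 0.0931. It passed in 6 of 27 alternatives, namely with values as deposited (adjusted p of 0.0171), with normalization within lines (0.0397), with median centring (0.0337), with only the compared groups in the fit (0.0392), without PLC ATAD2 siRNA replicate 1, which read 4.13 (0.00311), and with PLC ATAD2 siRNA replicate 2 alone (0.0033). Probe set 213182_x_at changed by -0.25 (adjusted p of 0.138), with overlapping groups. The brightest, 219533_at, read 4.76, 4.41 and 4.58 against 4.39, 4.62 and 4.59, a difference of 0.05 with an adjusted p of 0.913. It was also the one that did not follow the rest over the 18 arrays, with Pearson's r of -0.336 to -0.083 against them, whereas the other 4 correlated with each other at 0.711 to 0.944. Those arrays fall into 3 lines. With each line's mean subtracted, the values ran from -0.193 to 0.157 for 219533_at against the rest and from 0.119 to 0.637 among the other 4. In Affymetrix naming, the suffix _x_at marks probes that can also match other sequences.

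In SNU449 and PLC no CDKN1C probe set passed, and the changes ran from -0.20 to 0.09. The response of 216894_x_at differed between lines (F test, adjusted p of 0.037), by 0.48 for SNU449 minus Hep3B (adjusted p of 0.0335) and by 0.41 for PLC minus Hep3B (adjusted p of 0.0471). For 213348_at PLC exceeded Hep3B by 0.39 (adjusted p of 0.0433). Over the members these pairs gave 1 of 16 for SNU449 minus Hep3B, beside 2.7% of all probe sets (1.44% higher), and 3 of 16 for PLC minus Hep3B, all higher, beside 5.25% (2.28% higher). The 3 were CDKN1A and the CDKN1C probe sets 213348_at and 216894_x_at. None of 16 passed for SNU449 minus PLC, beside 0.114%, where 1 had an unadjusted p under 0.05 in limma, CDKN1A. The F test of 216894_x_at lost its call in 13 of 26 alternatives, among them the removal of any 1 of 11 arrays, with adjusted p of 0.0508 to 0.111, the highest without Hep3B control replicate 2. The 213348_at change in Hep3B lost its call without Hep3B control replicate 3, at -0.21 with an adjusted p of 0.112. It also lost it without Hep3B ATAD2 siRNA replicate 1 or 3, with adjusted p of 0.0642 and 0.0604, and with only the compared groups in the fit, with an adjusted p of 0.0854.

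Among the genes around CDKN1C on chromosome 11, KCNQ1, KCNQ1OT1, PHLDA2 and NAP1L4 were measured. KCNQ1OT1 is the long noncoding RNA that silences this imprinted domain, PHLDA2 an imprinted gene of placental growth and NAP1L4 a histone chaperone. None of the 4 passed in Hep3B, with changes of -0.22 for PHLDA2, -0.18 for NAP1L4, -0.16 for KCNQ1 and -0.01 for KCNQ1OT1. None passed in SNU449. In PLC NAP1L4 read 8.12, 8.66 and 8.10 after ATAD2 siRNA against 8.70, 8.72 and 8.71 after control siRNA, a change of -0.42 that passed (adjusted p of 0.0446). The low arrays were replicates 1 and 3, those with the wide 5′ to 3′ gap.

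The INK4 genes did not pass in any line. CDKN2A 209644_x_at read 5.14, 5.18 and 5.32 after ATAD2 siRNA and 5.22, 5.29 and 5.69 after control siRNA in Hep3B, 10.59, 10.62 and 10.58 against 10.56, 10.61 and 10.61 in SNU449, and 8.24, 8.15 and 8.10 against 8.19, 8.12 and 8.10 in PLC. The groups overlapped in all 3 lines. The 95% intervals of the log2 change were -0.386 to 0.016 in Hep3B, -0.201 to 0.201 in SNU449 and -0.173 to 0.229 in PLC. Probe set 207039_at, the second that reads CDKN2A well, changed by -0.14, 0.05 and 0.14 in Hep3B, SNU449 and PLC. The third, 211156_at, was dim on every array, between 3.07 and 3.99.

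CDKN2B, the TGF-beta responsive gene of p15, read 5.20, 5.14 and 5.39 on the PLC ATAD2 siRNA arrays with probe set 236313_at, all above the PLC controls at 4.92, 4.89 and 5.11. The change of 0.27 ± 0.109 had an adjusted p of 0.175, and with PLC ATAD2 siRNA replicate 2 alone it was 0.162. In SNU449 the same probe set read 6.79, 6.92 and 7.09 after ATAD2 siRNA and 6.93, 6.57 and 6.77 after control siRNA, with overlap. In Hep3B it read 2.44, 2.38 and 2.44 against 2.28, 2.61 and 2.41, close to the low end of the arrays. The dimmer 207530_s_at gave the widest SNU449 difference of the family, 4.33, 4.21 and 4.17 after ATAD2 siRNA against 3.93, 3.89 and 3.94, a change of 0.32 that did not pass (adjusted p of 0.308).

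CDKN2D, the gene of p19, showed no passing change. Probe set 210240_s_at changed by 0.02, 0.03 and -0.05 in Hep3B, SNU449 and PLC. Probe set 213586_at read 4.19, 4.68 and 4.10 on the PLC ATAD2 siRNA arrays against 4.65, 4.50 and 4.60 on the PLC controls, a change of -0.26 with an adjusted p of 0.257. The low arrays of this group, replicates 1 and 3, are those with the wide 5′ to 3′ gap. Without replicate 2 the change was -0.445 and passed (adjusted p of 0.00639), and with replicate 2 alone it was 0.099.

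CDKN3 dephosphorylates the activating threonine of CDK2 and is transcribed with the mitotic genes. Probe set 1555758_a_at read 10.94, 10.40 and 10.95 on the Hep3B ATAD2 siRNA arrays and 10.86, 10.89 and 10.81 on the Hep3B controls. Replicate 2, the array with the narrow 5′ to 3′ gap, was low, and the other two lay above every control. The change was -0.09 with an adjusted p of 0.795, and 0.09 without replicate 2 (adjusted p of 0.605). Probe set 209714_s_at had the same low array, at 10.21 against 10.89 and 10.82, and changes of -0.09 with all arrays and 0.124 without it. In PLC the ATAD2 siRNA arrays read 9.26, 9.46 and 9.33 with 1555758_a_at, all below the controls at 9.55, 9.55 and 9.51, a change of -0.19 that did not pass (adjusted p of 0.363). In SNU449 both probe sets overlapped.

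The lines differed far more than the siRNA groups. On control arrays, with a log2 difference of at least 1 required beside the adjusted p, 7 of the 16 probe sets differed between SNU449 and Hep3B, 3 higher and 4 lower in SNU449, beside 17.1% of all probe sets. For PLC minus Hep3B, 6 of 16 passed, 3 higher and 3 lower in PLC, beside 15.9%. Both counts include 209644_x_at and 207039_at of the same gene, CDKN2A, and both probe sets of CDKN3. For SNU449 minus PLC, 4 of 16 passed, all higher in SNU449, beside 17.3% in either direction and 8.53% higher. The deposited medians of PLC lay at 4.14 to 4.21, against 5.36 to 5.62 in the other lines, so that comparisons with PLC move with the scaling. On the values as deposited, 13 of 16 passed for PLC minus Hep3B and 9 for SNU449 minus PLC, where 42.2% and 49.3% of all probe sets did so and the median difference over all probe sets was -0.71 and 0.87. With centring on the medians, 3 and 4 passed, beside 37.3% and 39% of all probe sets, at median differences of 0.54 and -0.58.

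CDKN2A and CDKN2B carried the widest steps. Control levels of CDKN2A 209644_x_at averaged 10.6 ± 0.0275 in SNU449, 8.14 ± 0.0504 in PLC and 5.40 ± 0.2515 in Hep3B (SD, n = 3 each), and those of 207039_at averaged 9.27, 7.58 and 3.59. No 2 of the lines overlapped with either probe set. SNU449 exceeded Hep3B by 5.20 ± 0.0948 log2 units with the first and 5.68 ± 0.0854 with the second (adjusted p of 1.72e-17 and 1.49e-18 by limma). PLC exceeded Hep3B by 2.74 and 3.99. CDKN2B 236313_at followed the same order, at 6.76 ± 0.1797 in SNU449, 4.97 ± 0.1237 in PLC and 2.44 ± 0.165 in Hep3B, and SNU449 exceeded Hep3B by 4.32 ± 0.109 (adjusted p of 1.27e-15). On the Hep3B controls 207039_at lay at the 18.9 percentile and 236313_at at the 2.96 percentile of all probe sets, with 209644_x_at at the 56.9 percentile. No background reading was used here, so these are differences of signal, and no fold of RNA is given for them. The other CDKN2B probe set, the dim 207530_s_at, did not follow this order, with 3.92 in SNU449, 4.07 in PLC and 3.48 in Hep3B. Its differences stayed below the required size, and that of PLC minus Hep3B turned from 0.59 to -0.332 on the values as deposited. For 209644_x_at, 207039_at and 236313_at the order held with the values as deposited, with normalization within lines and with median centring. Under centring the SNU449 minus PLC difference of 207039_at fell below the required size, to 0.445.

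The CIP/KIP genes had another order. CDKN1A averaged 7.70 ± 0.0505 in SNU449, 7.48 ± 0.0424 in PLC and 9.06 ± 0.0564 in Hep3B, lower than in Hep3B by 1.36 in SNU449 (adjusted p of 8.71e-12) and by 1.58 in PLC (adjusted p of 1.36e-12). Under median centring the PLC minus Hep3B difference was -0.474. SNU449 and PLC lay 0.22 apart, below the required size, and this difference was negative under median centring, at -0.886. CDKN1B averaged 10.3 ± 0.1328 in SNU449, 9.25 ± 0.0023 in PLC and 9.79 ± 0.0941 in Hep3B. PLC minus Hep3B was -0.53, below the required size, and turned to 0.83 under median centring. SNU449 exceeded PLC by 1.06 (adjusted p of 6.24e-10), a direction that turned to -0.457 under median centring. The 4 concordant CDKN1C probe sets were lower in SNU449 than in Hep3B, by 0.86 to 1.07, and only 219534_x_at passed the required size.

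CDKN3 averaged 9.65 ± 0.0349 in SNU449, 9.54 ± 0.0211 in PLC and 10.9 ± 0.039 in Hep3B with 1555758_a_at, with a log2 difference from Hep3B of -1.203 in SNU449 and -1.318 in PLC. The PLC difference was 0.041 under median centring. SNU449 and PLC did not differ past the threshold (adjusted p of 0.361). CDKN2D 210240_s_at averaged 5.91 ± 0.1029 in SNU449, 5.32 ± 0.058 in PLC and 6.17 ± 0.0565 in Hep3B, with differences below the required size, and no difference of 213586_at passed.

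**Figure D3:**
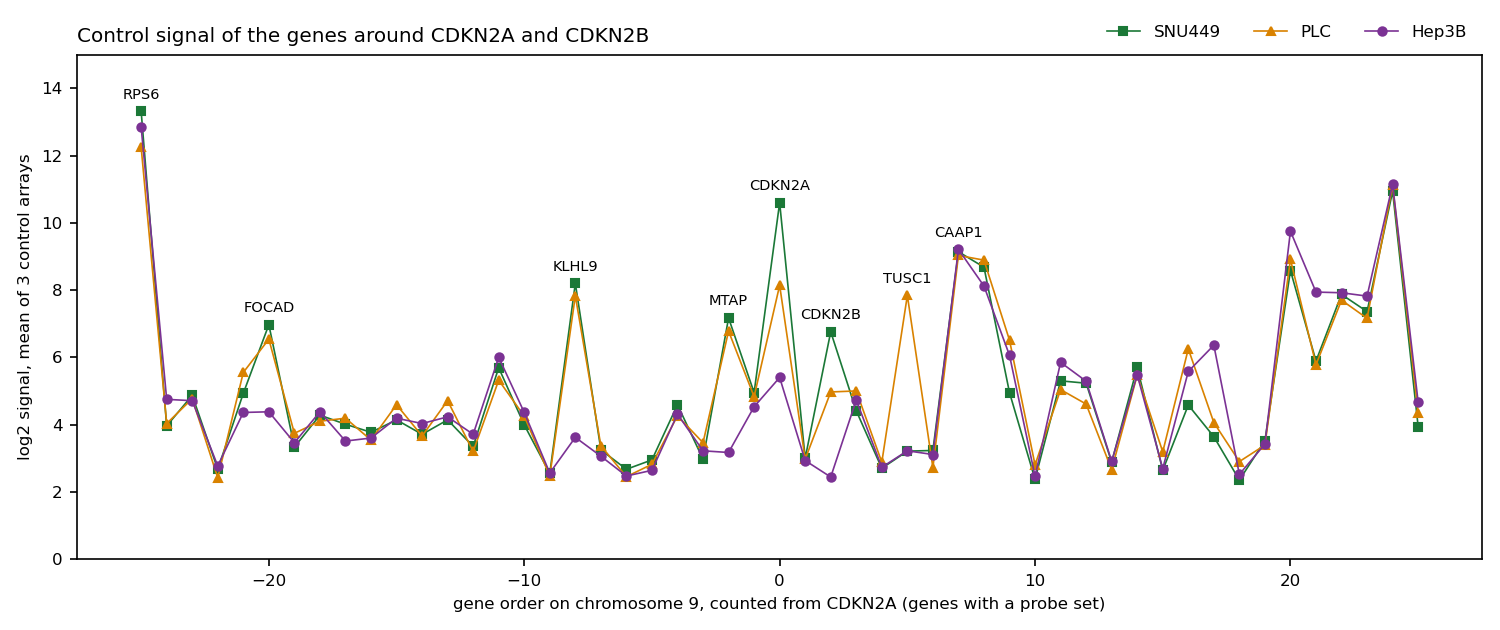
Mean log2 signal of 3 control arrays (y axis) for the 25 measured genes on either side of CDKN2A in their order on chromosome 9 (x axis), for the labels SNU449, PLC and Hep3B. By the brightest probe set of each gene, FOCAD, KLHL9, MTAP, CDKN2A and CDKN2B are lower in Hep3B than in the other lines, and RPS6 and CAAP1 are read in all 3 lines.

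The low INK4 signal of the Hep3B-labelled arrays was shared by some of the genes beside it on chromosome 9. These genes were chosen by position after values had been seen. KLHL9, an adaptor of a ubiquitin ligase, read 8.21, 8.23 and 8.16 on SNU449, 7.85, 7.83 and 7.81 on PLC and 3.64, 3.52 and 3.69 on Hep3B controls, and SNU449 exceeded Hep3B by 4.58 (adjusted p of 1.66e-18). MTAP, the methionine salvage enzyme next to CDKN2A, averaged 7.17 in SNU449, 6.78 in PLC and 3.17 in Hep3B. FOCAD averaged 6.97, 6.54 and 4.38 in the same lines. On the outer side of this run RPS6, a ribosomal protein gene, averaged 13.32 in SNU449, 12.25 in PLC and 12.85 in Hep3B, and on the other side CAAP1 averaged 9.14, 9.03 and 9.21. The interferon genes that lie between FOCAD and MTAP averaged at most 6 in every line. TUSC1, between CDKN2B and CAAP1, was read only in PLC, at 7.84, against 3.21 in SNU449 and 3.22 in Hep3B. CDKN2B-AS1, the antisense RNA of the locus, averaged 3.004 in SNU449, 2.967 in PLC and 2.925 in Hep3B. DMRTA1, the next measured gene after CDKN2B, was not lowest in Hep3B, at 4.41 in SNU449, 5.00 in PLC and 4.73 in Hep3B. No DNA was measured. ATAD2 siRNA did not move MTAP, KLHL9, CDKN2B-AS1 or DMRTA1 past the threshold in any line.

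**Figure D4:**
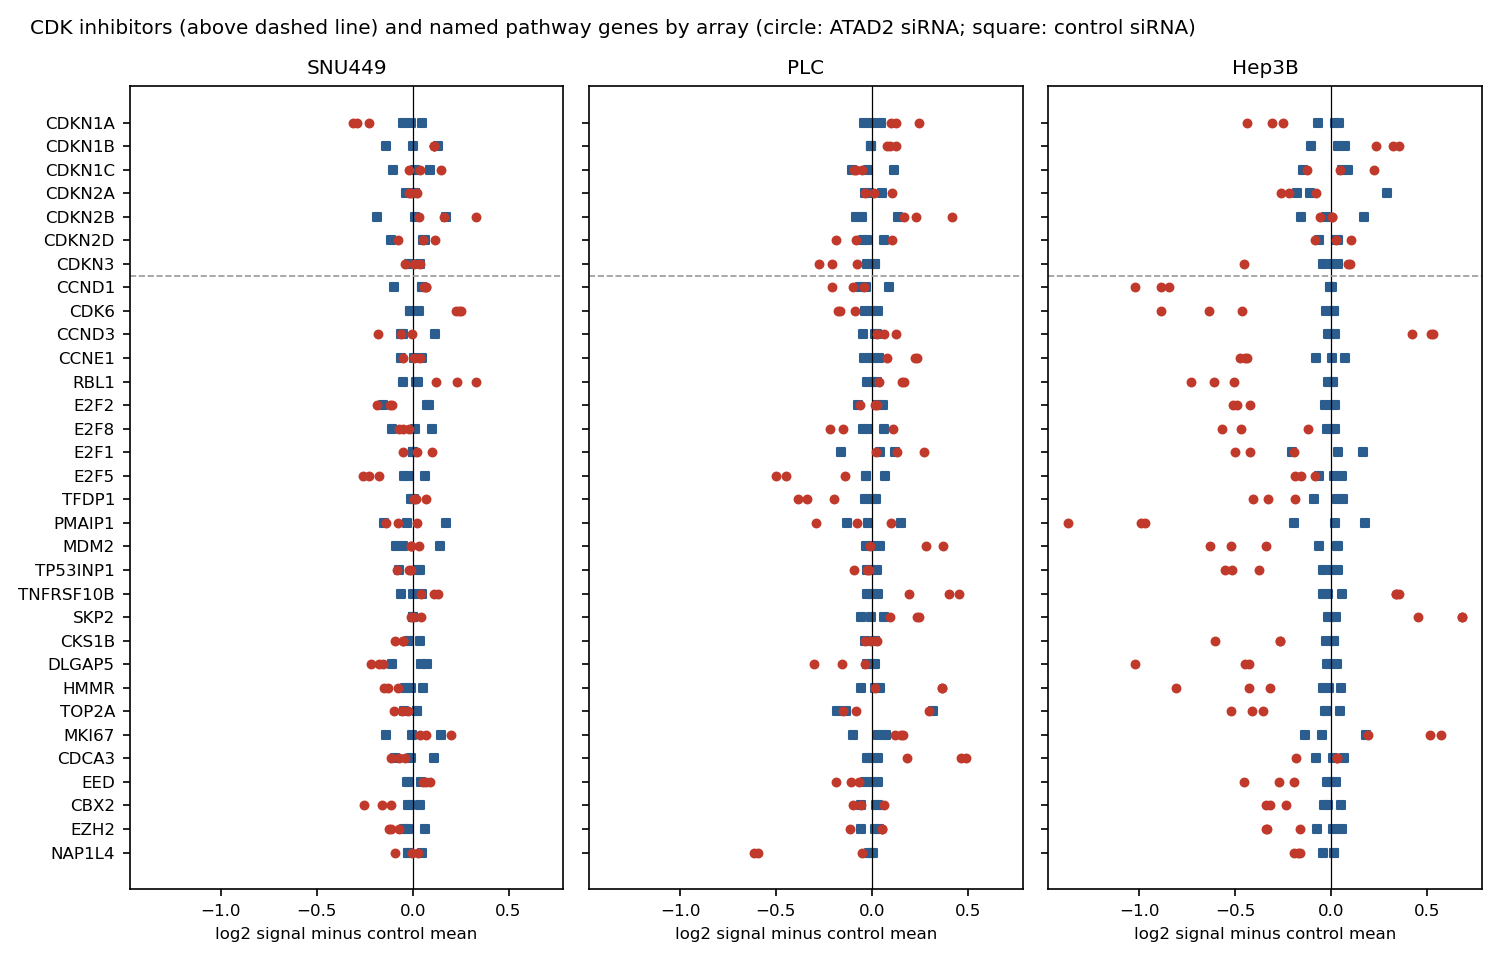
Log2 signal of each array minus the mean of the controls of its line (x axis) for the 7 CDK inhibitors and pathway list genes. The inhibitors are above the dashed line, each by its brightest probe set. The list genes are those with the largest changes past the threshold per list and line. Not every list gene that passed is shown. In Hep3B the changes of CCND1, CDK6, RBL1, PMAIP1, SKP2, DLGAP5 and others shown exceed those of every CDK inhibitor shown, and in SNU449 no gene shown passed.

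Genes of the G1 engine that these inhibitors act on changed in both directions in Hep3B. The 10 listed genes were D, E and A cyclins, their kinases and CDC25A, a phosphatase that activates such kinases. Each was read by its brightest probe set. Of these 10, 2 rose and 3 fell in Hep3B, where 12.5% of all 19775 genes passed, 6.91% higher and 5.6% lower. CCND1 (cyclin D1) read 7.91, 8.05 and 8.09 on the ATAD2 siRNA arrays against 8.94, 8.93 and 8.93 on the controls, a change of -0.92 ± 0.0687 (adjusted p of 2.38e-07). CDK6 fell by 0.66 and CCNE1 (cyclin E1) by 0.45, while CCND3 (cyclin D3) rose by 0.49 and CDC25A was the other gene to rise. None of the 10 passed in SNU449 or PLC, beside 0.0759% and 3.14% of all genes. Among 13 pocket proteins and E2F factors, which act downstream of these kinases, 1 rose and 5 fell in Hep3B, with RBL1 (p107) at -0.62, E2F2 at -0.48, E2F8 at -0.39 and E2F1 at -0.37 (groups overlapping for E2F1). In PLC E2F5 fell by 0.36 and TFDP1 by 0.31. TFDP1 was also among the 5 that fell in Hep3B, with means of 9.56 after ATAD2 siRNA and 9.87 after control siRNA. In SNU449 none of the 13 passed.

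Among 22 measured genes of p53 and its targets, a list without CDKN1A, 2 rose and 3 fell in Hep3B. Over all genes 6.91% rose and 5.6% fell there. PMAIP1 (NOXA, a BH3-only death protein) read 6.67, 6.27 and 6.65 after ATAD2 siRNA against 7.82, 7.45 and 7.66 after control siRNA, a change of -1.11 ± 0.131 (adjusted p of 2.95e-05). MDM2, the ubiquitin ligase of p53, fell by 0.50 and TP53INP1 by 0.48, while TNFRSF10B (a TRAIL receptor) rose by 0.34. TNFRSF10B also rose in PLC, by 0.35 (adjusted p of 0.0134), as the only one of the list to pass there, beside 3.14% of all genes. The median change of the list in Hep3B was -0.066, beside -0.019 over all genes. In SNU449 none of the 22 passed, beside 0.0759% of all genes.

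Of 11 genes of p27 turnover and transcription, 1 rose and 1 fell in Hep3B beside the rise of CDKN1B. In that line 6.91% of all genes rose and 5.6% fell. SKP2, which marks p27 for destruction, read 8.44, 8.21 and 8.44 after ATAD2 siRNA against 7.75, 7.78 and 7.74 after control siRNA, a change of 0.61 ± 0.0687 (adjusted p of 1.89e-05). CKS1B, the cofactor SKP2 needs for p27, fell by 0.38 (adjusted p of 0.00324). None of the 11 passed in SNU449 or PLC, beside 0.0759% and 3.14% of all genes.

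Of 24 mitotic genes, the class with which CDKN3 is transcribed, 1 rose and 7 fell in Hep3B. The shares of all genes there were 6.91% and 5.6%. The median change of the 24 was -0.215, beside -0.019 over all genes. DLGAP5, a spindle protein, read 10.21, 9.64 and 10.23 after ATAD2 siRNA against 10.64, 10.69 and 10.65 after control siRNA. Its change was -0.63 (adjusted p of 0.00211), and replicate 2 was the lowest array, as for CDKN3. HMMR fell by 0.52 and TOP2A by 0.43, while MKI67 rose by 0.43. In PLC CDCA3 rose by 0.38, the only one of 24 to pass, beside 3.14% of all genes, and in SNU449 none did, beside 0.0759%. Some of the 17 measured Polycomb and INK4 regulators keep CDKN2A and CDKN2B silent in many cells. Among these 17, 3 fell in Hep3B and none rose, beside 5.6% and 6.91% of all genes. The 3 were EED at -0.31, CBX2 at -0.30 and EZH2 at -0.28. CDKN2A was low under both siRNAs in this line, and whether its level is related to these genes was not tested. None of the 17 passed in SNU449 or PLC, where 0.0759% and 3.14% of all genes did.

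From array to array the CDK inhibitors, each read by its brightest probe set, were related in both directions. For CDKN1C this is 219533_at, which did not follow the gene's other probe sets. After each line's mean was subtracted, Pearson's r between pairs of the 7 genes over the 18 arrays ran from -0.605 for CDKN1A and CDKN1B to 0.503 for CDKN1C and CDKN3. It was 0.402 for CDKN1A and CDKN2A, 0.371 for CDKN1B and CDKN2B and -0.03 for CDKN2A and CDKN2B. These arrays share 3 lines and 2 siRNA groups, and the values are descriptions. On the same scale the genes most like CDKN1A were ALS2CL, PYCR1 and CBR3-AS1, at 0.929, 0.924 and 0.882. Those most like CDKN1B were ACLY, ARFGAP3 and VPS4B, at 0.953, 0.945 and 0.927, and those most like CDKN3 were DUSP5, ATRNL1 and HAUS1, at 0.93, 0.926 and 0.924. For CDKN2A, whose deviations within a line are small, the nearest were TRIM72, CLDN14 and PSTPIP1, at 0.844, 0.833 and 0.831. For CDKN2B they were WDR47, ERGIC1 and BHLHA15, at 0.851, 0.779 and 0.778, for CDKN2D TRAM2, ADCY3 and TOX4, at 0.846, 0.825 and 0.78, and for CDKN1C GXYLT2, SAMD13 and LOC105378052, at 0.832, 0.81 and 0.781. These genes are the highest of 19775, a choice that by itself favours high values. With line means subtracted, CDKN2A 209644_x_at and 207039_at correlated with each other at only -0.048. The same value was 0.337 for the probe sets of CDKN2B, 0.512 for those of CDKN2D and 0.831 for those of CDKN3. By levels over all lines, the nearest gene to CDKN2A was MGAT4A at 0.999 and to CDKN2B NPTX2 at 0.997, values that the steps between lines set.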

How the data were processed

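The deposited table holds log2 signals per probe set for 18 arrays. How the authors corrected and normalized them is not given in the sources used here. The submitters' processing notes name limma, without a version. Sorted columns nearly coincided within a line and differed by up to 1.51 between lines, so all 18 arrays were quantile normalized together. Of 54675 probe sets, 62 controls were left out. Per GEO's platform annotation 41097 had 1 gene, 1801 several and 11777 none, and 41043 symbols were updated by gene ID from RefSeq GRCh38.p14. The means of the 6 groups were fitted with limma 3.58.1 in R 4.3.3 (12 residual and 4.01 prior degrees of freedom), with Benjamini-Hochberg adjustment over 54613 probe sets and a threshold of 0.05. Differences between control arrays also needed an absolute log2 difference of 1. The fit was tested on simulated data. A listed gene was read by its brightest probe set, and up to 4 genes past the threshold with the largest changes were named per list and line, or every gene of the neighbour lists. The members and lists were chosen with earlier results of these data known. Nothing beyond the labels' word says that replicates were separate cultures, so p-values measure the spread between these arrays. Signals of different probe sets were ranked by brightness, for percentiles, the choice of the brightest and the filters on dim probe sets. They were not read as amounts of RNA of 1 gene against another.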

Additional observations from a re-analysis of the deposited data

Results flagged for a closer look

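Among the CDK inhibitors, the response to ATAD2 siRNA differed between lines for CDKN1A (F test of the limma interaction contrasts, adjusted p of 0.0084) and for CDKN1C 216894_x_at (adjusted p of 0.037). For CDKN1C 213348_at only the difference between PLC and Hep3B passed (adjusted p of 0.0433).

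The same F test passed for ATAD2 itself (adjusted p of 0.00258) by its probe set 222740_at. Among the genes of the G1 engine it passed for CCND1 (3.56e-05), CDK6 (0.000503), CCNE1 (0.00132) and CCND3 (0.00459). Among the pocket proteins and E2F factors it passed for RBL1 (0.000123) and E2F2 (0.0227). Among p53 and its targets it passed for PMAIP1 (0.00357), TP53INP1 (0.00711) and MDM2 (0.0123), and among the other lists for SKP2 (0.00431) and HMMR (0.0222). By single pairs of lines, the response of CKS1B differed between PLC and Hep3B (adjusted p of 0.0498) and that of EED between SNU449 and Hep3B (adjusted p of 0.0431). The remaining levels of ATAD2 differ between lines as well, and their part in these differences was not tested.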

How the results depend on the processing

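Up to 30 settings were compared, with 1 choice changed at a time. Counted over every result and setting, 3440 outcomes were unchanged, which includes results without a call under either setting. Of the rest, 43 calls were lost, 30 were gained and 15 values turned in direction with a call on either side. A further 81 values turned in direction with no call on either side and count as unchanged. Apart from the filters on dim probe sets, the cause of a change was not tested.

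The count of CDK inhibitor probe sets past the threshold was 4 in Hep3B and 2 without the dimmest 50% of probe sets, which leaves none of the 5 CDKN1C probe sets to test. It was 0 in SNU449 and 1 (CDKN1A) under that filter. For the mean over lines it was 2, and 1 with values as deposited, with normalization within lines, with median centring and with the replicate block, and 0 at a threshold of 0.01. For the F test it was 2, and 1 with median centring, without the dimmest 50% and at 0.01, and 0 with the replicate block. On control arrays it was 6 for PLC minus Hep3B, and 13 as deposited, 13 within lines and 3 centred. The shares of all probe sets were 15.9%, and 42.2%, 41.2% and 37.3% in the same order. For SNU449 minus PLC it was 4, and 9 as deposited and 10 within lines, beside 17.3%, and 49.3% and 48.5% of all probe sets. No share of all probe sets is given for the other settings here, so their counts are not read against the arrays as a whole. Leaving out 1 array gave 3 to 5 in Hep3B, 0 to 0 in SNU449, 0 to 1 in PLC, 1 to 3 for the mean, 1 to 3 for the F test, 7 to 8 for SNU449 minus Hep3B, 6 to 6 for PLC minus Hep3B and 3 to 4 for SNU449 minus PLC.

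CDKN1A in Hep3B kept its call in 29 of 30 settings, the exception being median centring. CDKN1C 219533_at turned to -0.252 in Hep3B when the gene's probe sets were averaged (adjusted p of 0.00584). Directions also turned on control arrays. For PLC minus Hep3B, CDKN1C 219533_at was -1.117 as deposited and -1.085 within lines, and CDKN3 1555758_a_at was 0.041 centred. For SNU449 minus PLC, values as deposited and within lines were 1.388 and 1.353 for CDKN1C 219533_at, 1.174 and 1.139 for 213182_x_at, 1.092 and 1.058 for 213348_at, and 1.063 and 1.029 for CDKN2B 207530_s_at. Centring gave -0.457 for CDKN1B, -1.381 for CDKN3 1555758_a_at and -1.273 for 209714_s_at. Uncalled differences also turned. For PLC minus Hep3B, CDKN1B was 0.83 centred, and CDKN2B 207530_s_at -0.332 as deposited and -0.296 within lines. For SNU449 minus PLC, CDKN1C 219534_x_at was 0.502 as deposited and 0.467 within lines, 216894_x_at 0.961 and 0.923, CDKN2A 211156_at 0.841 and 0.803, and CDKN1A -0.886 centred.

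Same-numbered arrays did not deviate together in every line, with correlations of -0.102 to 0.072. With the replicate block 3 probe sets passed in Hep3B, 0 in SNU449 and 0 in PLC. CDKN1C 213348_at was lost in Hep3B (adjusted p of 0.0726), and so were the F tests of CDKN1A (0.0637) and 216894_x_at (0.135). The best match of every array was its own number in PLC only. Over all probe sets the block took the calls to 3648 in Hep3B, 11 in SNU449 and 1071 in PLC, where the main settings gave 4846, 24 and 1816, and an intensity trend with a robust prior gave 6126, 91 and 2830.

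Precision rests on 3 arrays a group. The dim probe sets of CDKN1C, CDKN2A 211156_at and CDKN2B 207530_s_at, and CDKN2A 207039_at and CDKN2B 236313_at in Hep3B, gave low signal.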
